A study of Drosophila melanogaster with 90 samples.

Results

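The genes described here license DNA replication origins. They are dup, geminin, Mcm2, Mcm3, dpa, Mcm5, Mcm6, Mcm7 and Orc2, which are 9 of 17493 genes in the count tables. They were chosen by name, from a list of 10 licensing genes, and each was read by its FlyBase identifier in every library. The remaining gene of the list, Orc1, is not analysed here. All 9 passed the filter on low counts in every comparison below (a gene is kept when enough libraries of the fit hold counts of it).

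An origin is licensed when the origin recognition complex (ORC) and Cdc6 recruit Cdt1, encoded in flies by dup (double parked), which brings in the ring-shaped MCM helicase. The subunits of that helicase are encoded by Mcm2, Mcm3, dpa (disc proliferation abnormal, the fly Mcm4), Mcm5, Mcm6 and Mcm7, and Geminin binds Cdt1 to block loading again in the same cell cycle. In the Drosophila ovary, nurse cells and follicle cells become polyploid through endocycles that license and copy the genome without dividing, and late follicle cells amplify the chorion (eggshell) genes from origins that need ORC and Dup.

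RNA came from ovaries of flies mutant or knocked down for small ovary (sov, CG14438), a gene needed for female fertility. The libraries covered 30 genotypes with 3 libraries each, and each library was made from 15 pooled ovaries of females aged 4 to 5 days. Females of 7 mutant genotypes were sterile, namely those with Dfsov, sovEA42 or sovML150 over either KG00226 or sov2 (written Dfsov/KG00226 and so on) and NP6070/NP6070. Another 7 mutant genotypes were fertile, namely KG00226/KG00226 and each pair of different alleles among NP6070, sov2 and KG00226, written in both orders (as in sov2/NP6070 and NP6070/sov2). The 10 control genotypes, all fertile, were w1118/w1118 and heterozygotes of each allele with w1118. The alleles were a deficiency (Df(1)sov, on a w1118 chromosome), the P-element insertions KG00226 (P{SUPor-P}, with y[1]) and NP6070 (P{GawB}, with y[*] w[*]), sov[2] (on a y[1] cv[1] v[1] f[1] chromosome), sov[EA42], and sov[ML150] (with w1118). Marker mutations therefore differed between alleles, and the deficiency, sovEA42 and sovML150 were present in 1 copy in every genotype that carried them. In the knockdown experiment a sov hairpin (TRiP.HMC04875, at attP40) was set against an mCherry hairpin (VALIUM20, at attP2), so the hairpins also differed in insertion site. Each was driven by da-Gal4 (ubiquitous), nos-Gal4 (germline) or tj-Gal4 (NP1624, ovarian soma), and the labels gave the sov RNAi females as sterile and the mCherry RNAi females as fertile.

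Libraries held a median of 4346724.5 gene counts (lowest 2110, highest 13164806), and no pair of libraries held identical values. Replicate 3 of Dfsov/sov2, replicate 2 of sovML150/KG00226 and replicate 1 of sov2/w1118 had under 100000 gene counts and were left out, so these genotypes have n = 2 below; the 87 libraries kept had at least 932267. Messenger RNA of sov averaged 81.71 ± 5.02 CPM (counts scaled to library size; SD, n = 3) in Dfsov/KG00226 and 98.53 ± 8.31 CPM in Dfsov/w1118, against 147.5 ± 9.66 CPM in w1118/w1118. It was not low in every mutant: sovML150/sov2 had 329.5 ± 9.37 CPM. In ovaries labelled sov RNAi it averaged 125.9 ± 7.80 CPM with da-Gal4, against 176.4 ± 23.7 CPM in mCherry RNAi ovaries (n = 3 each). With nos-Gal4 it averaged 165.8 ± 25.7 CPM, against 160.0 ± 22.1 CPM, and with tj-Gal4 218.7 ± 12.9 CPM, against 157.4 ± 6.69 CPM, so whole-ovary sov messenger RNA did not follow the knockdown label with these drivers. Germline and chorion markers of the labelled ovary were present in every control (summed, 3502 to 4231 and 15520 to 44040 CPM). In sterile mutants summed chorion markers ran from 89.49 to 16260 CPM, and summed markers of muscle ran from 361.4 to 12960 CPM, against 169.9 to 450.3 CPM in controls. Summed germline markers ran from 1966 to 3573 CPM in sterile mutants, and summed hemocyte markers from 172.3 to 1937 CPM, against 190.1 to 343.1 CPM in controls. Summed follicle cell markers ran from 307.0 to 613.3 CPM in sterile mutants (median 407.0), against 276.3 to 574.7 CPM in controls (median 405.4). Between these classes 10 of 10 muscle markers and 2 of 4 hemocyte markers tested were called higher (1 hemocyte marker lower). These marker differences did not hold in every sterile genotype. Muscle markers of NP6070/NP6070 (361.4 CPM) and chorion markers of Dfsov/KG00226 (16260 CPM) lay inside the control ranges. The part of the markers in the results below was not tested. In whole ovaries, fewer cells of a type and less RNA per cell cannot be told apart.

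The members lie on 4 chromosomes (positions are from the BDGP6 annotation): dup at 2R:15376619-15380988, geminin at 2R:6655463-6656594, dpa at 2R:7496702-7500145, Mcm2 at 3R:8264970-8267924, Mcm5 at 3R:10788524-10791150, Orc2 at 3R:13964885-13967075, Mcm7 at 3L:8891596-8894310, Mcm3 at X:5323855-5326738 and Mcm6 at X:6674387-6677176. Mcm6 lies 79146 bp from sov, closer than any other member. Values are exonic counts per gene. The antisense RNA asRNA:CR45871 overlaps 2205 bp of the Mcm7 gene on the opposite strand, and dup, Mcm3 and Orc2 overlap opposite-strand genes by 265, 64 and 15 bp. The libraries were stranded, but the strand setting of the counting is not given in the sources used here, so Mcm7 counts could include antisense reads.

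Per kilobase of exon, geminin had the highest level of the 9 genes and Orc2 the lowest in 30 of 30 genotypes. Among controls, geminin ran from 87.62 to 134.1 CPM per kb and Orc2, which encodes an ORC subunit, from 17.98 to 38.48 CPM per kb. The helicase subunit genes lay close together. Within a genotype, the highest of the MCM subunits was between 1.307 and 1.763 times the lowest on the CPM per kb scale (median 1.479 over 30 genotypes). Mcm3 was the lowest subunit in 29 genotypes and dpa the highest in 19. Control medians of 57.34 (Mcm6), 58.25 (Mcm2) and 59.41 (Mcm7) CPM per kb differed by less than the spread among control genotypes, as did those of dup (69.12), Mcm5 (71.47) and dpa (72.82).

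Licensing genes were lower in ovaries of sterile sov mutants than in those of controls. Of the 9 members, 8 fell, by 0.25 to 0.82 on the log2 scale, and Mcm7 did not pass the test. The comparison used counts summed per genotype, 7 sterile against 10 control genotypes, with edgeR's quasi-likelihood test and Benjamini-Hochberg adjustment over 8449 features; an adjusted p under 0.05 counts as passing. It called 44.4% of all features, and 19.8% as lower. Genotypes share alleles, and both written orders of an allele pair count separately, so the genotypes are not fully independent replicates. The members' median log2 change was −0.49, and that of all features was 0.00.

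Orc2 had the lowest log2 change of the 9. Its lowest, median and highest genotype mean was 19.57, 28.64 and 46.76 CPM in sterile mutants, against 35.87, 58.15 and 76.76 CPM in controls. In 4 of the 7 sterile genotypes it lay below every control genotype. Its log2 change was −0.82 ± 0.17 (SE), or 0.568 times the control level (adjusted p = 0.000536).

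The Cdt1 gene dup had genotype means from 101.6 to 191.1 CPM in sterile mutants, with a median of 149.4 CPM, and from 168.4 to 270.3 CPM in controls, with a median of 216.9 CPM. Of the 7 sterile genotypes, 5 lay below every control and 2 inside the control range. The log2 change was −0.57 ± 0.12, or 0.671 times (adjusted p = 0.000671). The inhibitor gene geminin had the change nearest to 0: it ran from 88.33 to 118.4 CPM in sterile mutants (median 92.67) and from 92.96 to 142.3 CPM in controls (median 116.3). The log2 change of geminin was −0.25 ± 0.08, or 0.843 times (adjusted p = 0.0202), and 4 sterile genotypes lay below every control.

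Among sterile mutants, each helicase subunit gene was highest in Dfsov/KG00226. The dpa gene ranged from 101.5 to 232.5 CPM over sterile genotypes and from 190.4 to 309.2 CPM over controls, a log2 change of −0.51 ± 0.12 (adjusted p = 0.00179). Mcm2 ranged from 68.56 to 188.4 CPM in sterile mutants, against 152.3 to 220.0 CPM in controls, and fell by 0.53 ± 0.13 (adjusted p = 0.00205). For both genes, and for Mcm3 and Mcm6, 6 of the 7 sterile genotypes lay below every control genotype, the exception being Dfsov/KG00226.

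Mcm3 fell by 0.49 ± 0.15 on the log2 scale (56.0 to 159.1 CPM in sterile mutants, 115.2 to 193.5 CPM in controls, adjusted p = 0.0112). Mcm5 fell by 0.48 ± 0.12 (78.52 to 184.8 CPM and 141.7 to 218.8 CPM, adjusted p = 0.00324), and Mcm6 fell by 0.39 ± 0.10 (91.9 to 178.9 CPM and 141.9 to 199.6 CPM, adjusted p = 0.00268). For Mcm5 and Mcm7, 5 sterile genotypes lay below every control. Mcm7 had 77.16 to 173.2 CPM in sterile mutants and 128.0 to 187.1 CPM in controls, with a log2 change of −0.31 ± 0.14 and an interval of −0.60 to −0.02 (95%; adjusted p = 0.0803, unadjusted p = 0.0399). It was called, as 1 of 9 lower members, when no filter on low counts was used.

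**Figure D1:**
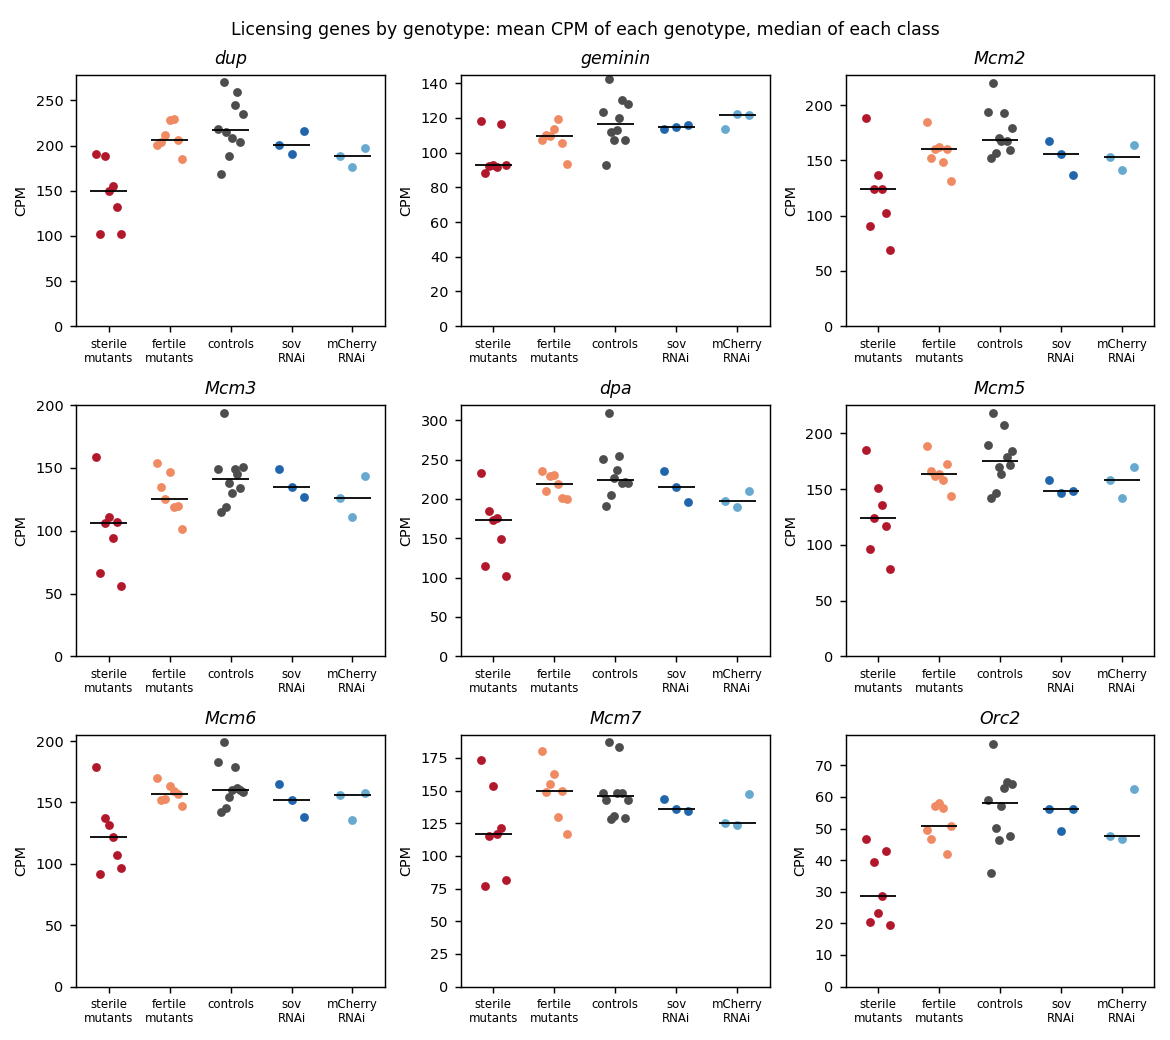
Level of each licensing gene (CPM, axes starting at 0), with 1 point per genotype mean in sterile mutants (7), fertile mutants (7), controls (10), sov RNAi (3) and mCherry RNAi (3); bars mark the median. Sterile medians lie under control medians for all 9 genes, for example 28.64 CPM and 58.15 CPM for Orc2.

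Libraries carried 1 of 2 spike-in pools, 78A (44 libraries) or 78B (46). Pools were not balanced within genotypes. For example, all sov2/NP6070 libraries carried 78B, and all NP6070/w1118 and tj-Gal4 sov RNAi libraries carried 78A. With 78A libraries alone, 3 members passed the test between sterile mutants and controls (dup, geminin and Orc2), and with 78B libraries alone 7 passed (all but geminin and Mcm7). All 9 changes were below 0 within each pool, with medians of −0.38 and −0.44. Scaling to the spike-ins in place of TMM moved the median of all features to −1.33 and the share of calls that were higher to 6.54%, against 55.38% with TMM. On that scale the members' median lay 0.38 below that of all features, and 9 members passed. The share of all features called is not given here for spike-in scaling or for single pools, so these counts have no baseline.

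Fertile mutants gave no called member. Between fertile mutants and controls, log2 changes ran from −0.16 for Mcm2 to −0.01 for Mcm7, and 0 of 9 members passed edgeR's test (0 also at an unadjusted p under 0.05 and 0 by DESeq2) in a comparison that called 3.93% of all features. The intervals still allow moderate changes: that of Mcm2 was −0.43 to 0.10, that of Orc2 −0.48 to 0.21. Genotype means of dup were 185.3 to 229.0 CPM in fertile mutants, inside the control range, and those of Orc2 were 41.85 to 58.16 CPM. Mcm2 lay below every control in 3 fertile genotypes (KG00226/NP6070, NP6070/sov2 and sov2/NP6070), while Mcm3 and Mcm7 did so in sov2/NP6070 alone.

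Set against fertile mutants directly, sterile mutants had lower levels of 6 members in a comparison that called 35.8% of all features and 14.3% lower. Orc2 fell by 0.68 ± 0.18 (adjusted p = 0.00563), dup fell by 0.49 ± 0.13 (adjusted p = 0.00577), and dpa, Mcm2, Mcm5 and Mcm6 fell by 0.41, 0.37, 0.36 and 0.33. Changes of Mcm3 (−0.34, adjusted p = 0.0999), Mcm7 (−0.30, adjusted p = 0.128) and geminin (−0.12, adjusted p = 0.325) did not pass. Within pool 78A 1 member passed (Orc2), and within 78B 3 passed (dup, dpa and Orc2), with all 9 changes below 0 in both. The share of all features called within a pool is not given here.

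Single genotypes showed that sterility and low licensing genes did not always go together. Each of the 14 mutant genotypes was compared with w1118 heterozygotes of its own alleles in a fit of 69 libraries. Of 126 tests over the 9 genes, 51 were lower and 0 higher. Sterile genotypes held 46 of these calls, in 6 genotypes, and fertile genotypes held 5, all in sov2/NP6070. These comparisons share heterozygotes where they share an allele. With spike-in scaling the median of all features lay between −0.13 (NP6070/NP6070) and −2.68 (sovML150/KG00226) in sterile genotypes. Of all calls 5.331% to 17.25% were then higher in the sterile genotypes other than NP6070/NP6070, against 53.18% to 59.46% with TMM. The members' median lay below that of all features on the spike-in scale in each of the 7, with a difference of −0.02 in Dfsov/KG00226 and −1.10 in sovML150/sov2.

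**Figure D2:**
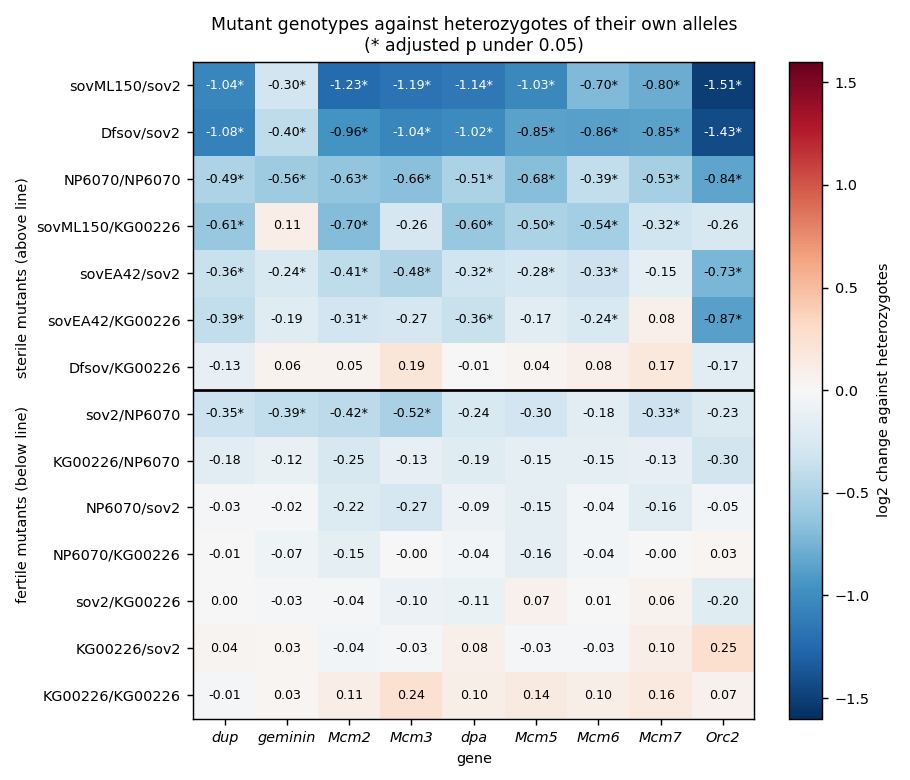
Log2 change of each licensing gene in each of the 14 mutant genotypes against w1118 heterozygotes of the same alleles (colour scale centred on 0); marked cells passed an adjusted p of 0.05. Dfsov/sov2, NP6070/NP6070 and sovML150/sov2 have 9 marked genes each, and Dfsov/KG00226 has 0.

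In Dfsov/sov2 all 9 members fell, by 0.40 to 1.43 on the log2 scale, in a comparison that called 50.2% of all features and 22.5% lower. Every member's libraries lay below all 8 heterozygote libraries. Here and for the genotypes below, the share of all features without overlap was not counted, so lack of overlap is not a result about the members. The dup gene had 89.13 and 114.1 CPM in Dfsov/sov2, against 183.7 to 242.1 CPM in the heterozygotes, a log2 change of −1.085 ± 0.15 (adjusted p = 4.74e-08). Orc2 had 16.39 and 24.58 CPM in Dfsov/sov2, against 42.93 to 65.5 CPM (−1.43 ± 0.21, adjusted p = 8.07e-08). Both Dfsov/sov2 libraries were low for each gene, and the groups did not overlap.

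In sovML150/sov2 all 9 members fell as well, by 0.30 to 1.51, where 62.7% of all features were called and 29.4% lower. The dpa gene had 100.2, 101.5 and 102.9 CPM in sovML150/sov2, against 215.2, 254.9 and 239.7 CPM in sovML150/w1118. Its 3 mutant libraries agreed within a few CPM and lay far under every heterozygote library; the log2 change was −1.14 ± 0.11 (adjusted p = 2.57e-13). Mcm2 had 68.5, 60.74 and 76.43 CPM in sovML150/sov2, against 161.7, 169.9 and 171.6 CPM in sovML150/w1118 (−1.23 ± 0.13, adjusted p = 6.79e-12). Mcm3 had 56.24, 53.4 and 58.37 CPM, against 113.8, 135.3 and 140.7 CPM. Of the 9 genes only geminin overlapped: 108.4, 87.24 and 83.55 CPM in sovML150/sov2, against 98.74 to 126.2 CPM in its heterozygotes (−0.30 ± 0.09, adjusted p = 0.0037). Dfsov/sov2 and sovML150/sov2 were also the genotypes with the highest summed muscle markers, 12960 and 10410 CPM, and with chorion markers at 89.49 and 368.8 CPM. Summed hemocyte markers were 1937 and 1787 CPM and germline markers 2564 and 1966 CPM in these genotypes. Follicle cell markers summed to 435.7 and 613.3 CPM in them. The median log2 change of germline markers was −0.40 in Dfsov/sov2 and −0.89 in sovML150/sov2, where those of the members were −0.96 and −1.04.

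Homozygous NP6070 had low licensing genes with summed muscle markers of 361.4 CPM, inside the range of all controls but above its own heterozygotes: its libraries held 311.9 to 423.2 CPM, against 151.7 to 195.3 CPM in NP6070/w1118 and 204.9 to 263.7 CPM in w1118/NP6070. Of 10 muscle markers tested 2 were called higher than in its heterozygotes. Summed chorion markers were 8706 CPM, germline markers 3573 CPM and hemocyte markers 172.3 CPM. All 9 members fell, by 0.39 to 0.84, with no overlap with the 6 heterozygote libraries, in a comparison that called 26.0% of all features and 12.1% lower. The dup gene had 193.6, 184.8 and 186.7 CPM in NP6070/NP6070, against 275.7, 268.5 and 266.6 CPM in NP6070/w1118 and 231.6, 258.4 and 287.0 CPM in w1118/NP6070 (−0.49 ± 0.13, adjusted p = 0.00265). Orc2 had 44.77, 37.55 and 35.93 CPM, against 75.6, 76.11 and 78.59 CPM in NP6070/w1118 (−0.84 ± 0.16, adjusted p = 5.87e-05). NP6070/w1118 had the highest level of every member among the 10 controls, so the size of these changes depends on it; against the mean of all 10 controls, 8 members passed. With spike-in scaling 0 passed, while the members' median still lay 0.58 below that of all features.

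The members' median change was −0.33 in sovEA42/sov2 and −0.27 in sovEA42/KG00226. In sovEA42/sov2 8 members were called lower (background 39.5%, lower 16.0%), all but Mcm7. In sovEA42/KG00226 5 were called (background 38.3%, lower 17.0%): dup (−0.39), Mcm2 (−0.31), dpa (−0.36), Mcm6 (−0.24) and Orc2 (−0.87). Orc2 had 9.126, 26.47 and 33.95 CPM in sovEA42/KG00226, against 43.64, 53.34 and 42.11 CPM in sovEA42/w1118; the lowest value rests on 13 counts. Orc2 in sovEA42/KG00226 and Mcm2 in sovEA42/sov2 were the members whose libraries lay below all heterozygote libraries. Single libraries decided most of these calls. When replicate 1 of sovEA42/sov2 was left out, 1 member passed (Orc2), and 4 and 5 did without its replicate 2 or without replicate 3 of sovEA42/w1118. For sovEA42/KG00226, 2 passed without its replicate 1, and 3 passed without replicate 3 of KG00226/w1118 or replicate 2 or 3 of sovEA42/w1118.

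In sovML150/KG00226, with 2 libraries, 6 members were called lower (background 52.2%, lower 23.9%): dup (−0.61), Mcm2 (−0.70), dpa (−0.60), Mcm5 (−0.50), Mcm6 (−0.54) and Mcm7 (−0.32). The libraries differed: dup had 91.73 and 171.5 CPM, against 196.0, 216.2 and 212.6 CPM in sovML150/w1118. Mcm2 and dpa lay below all heterozygote libraries in both. When replicate 1 was left out, 2 members passed (Mcm2 and dpa), with the lone library left assumed to vary like the other genotypes.

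Dfsov/KG00226 was sterile with licensing genes near the heterozygote level. None of the 9 members passed (0 at an unadjusted p under 0.05 and 0 by DESeq2), although 40.0% of all features did, and changes lay between −0.17 and 0.19 (median 0.05). Set against all 10 controls, Mcm7 was called higher (0.24 ± 0.09, adjusted p = 0.0319 by edgeR), the 1 member that passed. The dup gene had 171.2, 201.1 and 200.9 CPM in Dfsov/KG00226, against 229.4, 184.8 and 242.1 CPM in Dfsov/w1118. Orc2 had 48.45, 46.93 and 44.9 CPM, against 59.81, 51.74 and 65.5 CPM. Chorion markers summed to 16260 CPM in Dfsov/KG00226, the highest among sterile mutants, and muscle markers to 1583 CPM.

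Among fertile mutants, sov2/NP6070 had 5 members called lower (background 12.4%, lower 5.41%): Mcm3 (−0.52), Mcm2 (−0.42), geminin (−0.39), dup (−0.35) and Mcm7 (−0.33). Geminin had 86.45, 95.41 and 98.24 CPM in sov2/NP6070, against 98.74 to 146.6 CPM in its 11 heterozygote libraries; geminin and Mcm2 did not overlap with them. When replicate 1 of sov2/NP6070 was left out, 2 passed (geminin and Mcm3), with the spike-in pool as a term 3 passed, and with spike-in scaling 0 passed. The same alleles in the other written order, NP6070/sov2, gave 0 called members (background 18.5%) by edgeR, with 2 at an unadjusted p under 0.05 (Mcm2 and Mcm3), and 1 by DESeq2. Without replicate 3 of w1118/sov2, Mcm3 passed. All sov2/NP6070 libraries carried pool 78B and those of NP6070/sov2 carried 78A, 78B and 78A, so written order was partly tied to pool. The other fertile genotypes gave 0: KG00226/KG00226 (background 3.18%), KG00226/NP6070 (4.57%), NP6070/KG00226 (25.0%), KG00226/sov2 (6.90%) and sov2/KG00226 (3.91%), with 1, 2, 0, 0 and 0 members at an unadjusted p under 0.05 and 0 by DESeq2. Set against all 10 controls, Mcm7 passed as higher in KG00226/KG00226 (0.29, adjusted p = 0.0364 by edgeR) and Orc2 as lower in sov2/KG00226 (−0.40, adjusted p = 0.0442 by edgeR).

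One copy of the deficiency did not change a member by these tests. In Dfsov/w1118, set against w1118/w1118, 0 of 9 passed (0 at an unadjusted p under 0.05 and 0 by DESeq2; background 2.59%). Mcm6, the member nearest to sov, had 173.8, 188.9 and 187.1 CPM in Dfsov/w1118, against 166.6, 170.8 and 137.6 CPM in w1118/w1118 (log2 change 0.21 ± 0.11, adjusted p = 0.393).

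The Dfsov, sovEA42 and sovML150 alleles were each paired with both sov2 and KG00226, so the effects of these partners could be subtracted; this comparison was chosen after the values had been seen. With Dfsov, all 9 members were lower with sov2 than with KG00226 (background 39.1%, lower 17.3%), by 0.46 ± 0.12 for geminin to 1.26 ± 0.24 for Orc2. With sovML150, 7 of 9 were lower with sov2 (background 15.4%, lower 6.82%), by 0.41 ± 0.12 for geminin to 1.25 ± 0.25 for Orc2. The exceptions were dup (−0.44, adjusted p = 0.0904) and Mcm6 (−0.16). Orc2 had 23.52, 17.12 and 18.06 CPM in sovML150/sov2, against 39.79 and 46.25 CPM in sovML150/KG00226. When replicate 3 of sovML150/KG00226 was left out, 2 members passed (Mcm3 and Orc2), when replicate 3 of sovML150/sov2 was left out, 4 passed, and with spike-in scaling 0 passed.

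With sovEA42, by contrast, 0 of 9 passed (background 1.82%; 0 at an unadjusted p under 0.05 and 0 by DESeq2). Differences ran from −0.22 for Mcm7 (interval −0.50 to 0.06) to 0.15 for Orc2 (interval −0.29 to 0.58). Without replicate 3 of sovEA42/sov2, Mcm7 passed. Muscle markers moved with these differences: they summed to 12960 CPM in Dfsov/sov2 and 1583 CPM in Dfsov/KG00226, to 10410 CPM in sovML150/sov2 and 4211 CPM in sovML150/KG00226 (where Act88F was at 0), and to 3602 CPM in sovEA42/sov2 and 4911 CPM in sovEA42/KG00226. Summed hemocyte markers did so as well. They were 1937 CPM in Dfsov/sov2 and 422.8 CPM in Dfsov/KG00226, and 1787 CPM in sovML150/sov2 and 815.7 CPM in sovML150/KG00226. In sovEA42/sov2 and sovEA42/KG00226 they were 659.2 and 869.5 CPM. Chorion markers were less regular. Summed chorion markers were 89.49 CPM in Dfsov/sov2 and 16260 CPM in Dfsov/KG00226, but 368.8 CPM in sovML150/sov2 and 301.9 CPM in sovML150/KG00226. Summed germline markers were 2564 and 2929 CPM in the Dfsov pair and 1966 and 2145 CPM in the sovML150 pair. The part of the markers in the result was not tested.

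**Figure D3:**
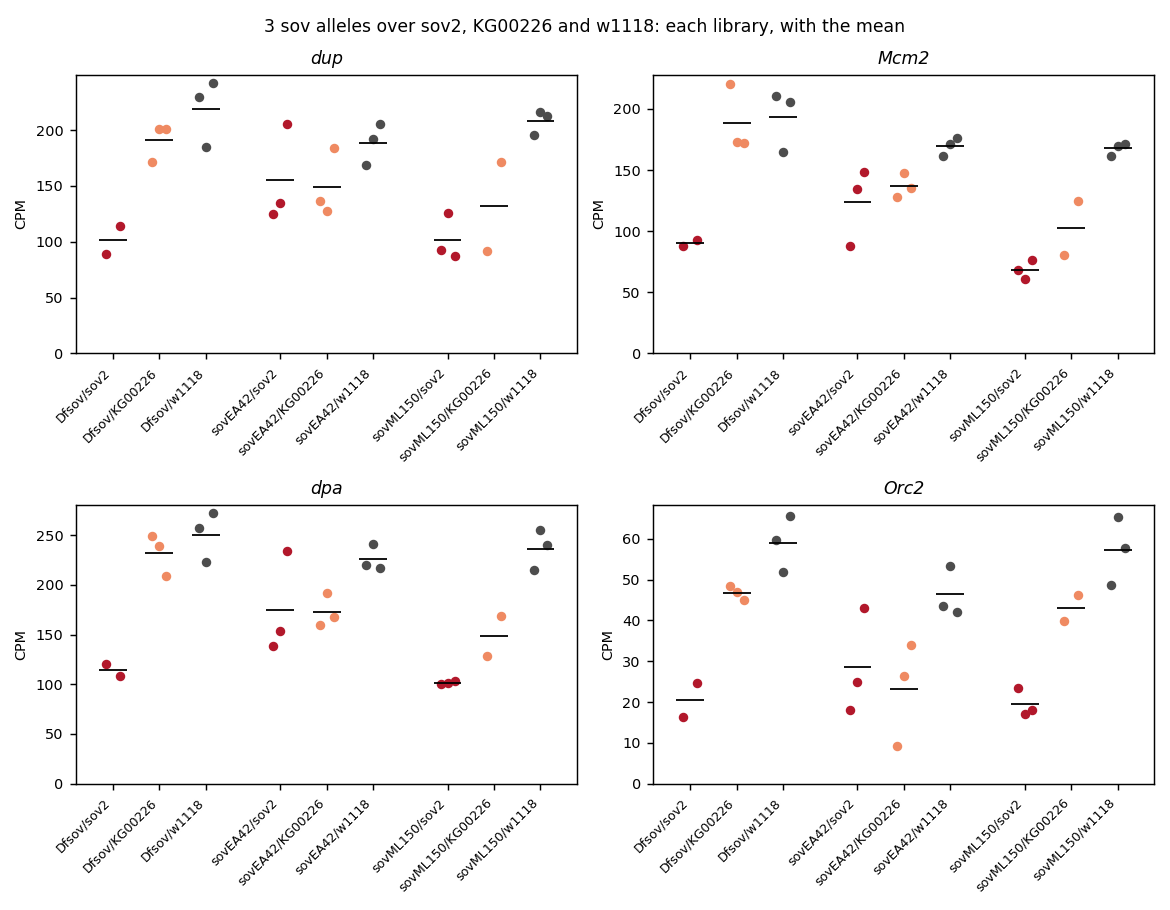
CPM of dup, Mcm2, dpa and Orc2 in each library (points) for the Dfsov, sovEA42 and sovML150 alleles over sov2, over KG00226 and over w1118; bars mark the mean. All Dfsov/sov2 points lie below those of Dfsov/KG00226, as with 16.39 and 24.58 against 44.9 to 48.45 CPM for Orc2, while those of sovEA42/sov2 and sovEA42/KG00226 overlap.

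Ovaries labelled sov RNAi gave no called member with any driver. With da-Gal4, log2 changes ran from −0.00 for geminin to 0.25 for dpa (0 of 9 called by edgeR and by DESeq2; background 21.1%). The dpa gene had 235.2, 252.8 and 216.3 CPM in sov RNAi ovaries, against 215.1, 191.9 and 185.8 CPM in mCherry RNAi ovaries. The sov RNAi libraries were all above the mCherry libraries, and dpa was the 1 member with an unadjusted p under 0.05 (0.25 ± 0.09, adjusted p = 0.0582). It passed without replicate 1 of mCherry RNAi, and dpa and Mcm7 passed without replicate 3 of sov RNAi; leaving out tj-Gal4 sov RNAi replicate 1 or 2, which share the fit, also let dpa pass.

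With nos-Gal4, changes ran from −0.09 for geminin to 0.27 for Mcm3 (0 of 9 called by edgeR and by DESeq2; background 2.62%). Mcm3 had 140.1, 126.0 and 137.7 CPM in ovaries labelled nos-Gal4 sov RNAi, against 103.0, 116.7 and 113.9 CPM in mCherry RNAi ovaries, without overlap. It was the 1 member with an unadjusted p under 0.05 (adjusted p = 0.375).

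With tj-Gal4, changes ran from −0.23 for Mcm2 to 0.15 for dup (0 of 9 called by edgeR and by DESeq2; background 11.8%). Mcm2 had 154.7, 114.0 and 142.5 CPM in ovaries labelled tj-Gal4 sov RNAi, where sov itself was higher than with mCherry RNAi, against 160.7, 175.0 and 156.7 CPM in mCherry RNAi ovaries, and was the 1 member with an unadjusted p under 0.05 (−0.23 ± 0.11, adjusted p = 0.197). Replicate 1 of sov RNAi was the highest of the 3 for each MCM subunit; without it Mcm6 passed. Muscle markers summed to 2751 CPM in tj-Gal4 sov RNAi ovaries, against 268.7 CPM in mCherry RNAi ovaries, and hemocyte markers to 613.0 CPM, against 311.4 CPM. With spike-in scaling the median of all features was −1.36 and 9 members passed as lower. The members' median lay 0.17 below that of all features. Of all calls 4.17% were then higher, against 78.62% with TMM. The share of all features called on that scale is not given here, so the 9 calls are not a result about the members.

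Drivers were compared with each other through the difference of their effects, and 0 of 9 members passed in any of the 3 differences by edgeR or DESeq2. The largest was that of Mcm3, whose nos-Gal4 effect exceeded its tj-Gal4 effect by 0.43 ± 0.18 (adjusted p = 0.214; background 4.87%). For nos-Gal4 minus tj-Gal4, 3 members had an unadjusted p under 0.05 (Mcm2, Mcm3 and Mcm6), and Mcm3 and Mcm6 passed without tj-Gal4 sov RNAi replicate 1. For da-Gal4 minus tj-Gal4, 4 members had an unadjusted p under 0.05 (Mcm2, Mcm3, dpa and Mcm7). Of the members, Mcm3, dpa and Mcm6 passed without tj-Gal4 sov RNAi replicate 1, and Mcm2 and Mcm7 without da-Gal4 sov RNAi replicate 3. For da-Gal4 minus nos-Gal4 none did (background 1.30%).

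**Figure D4:**
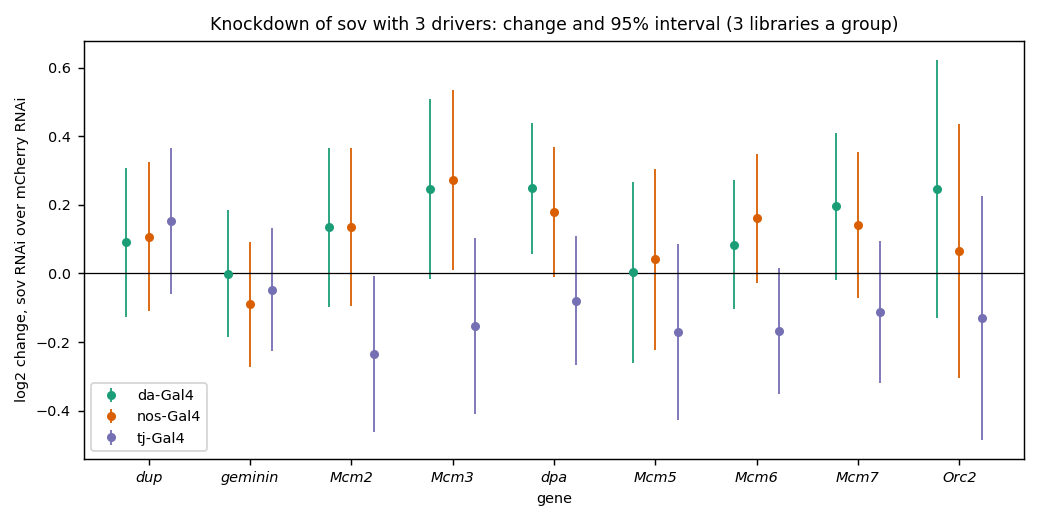
Log2 change of each licensing gene in sov RNAi over mCherry RNAi ovaries for da-Gal4, nos-Gal4 and tj-Gal4 (3 libraries a group), with 95% intervals. All points lie between −0.23 and 0.27, and 7 of the 9 tj-Gal4 points lie below both other drivers.

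Other genes of the replication pathway were read from fixed lists, in a comparison that called 44.4% of all features and 19.8% lower. Among the remaining loading factors, 2 of 4 tested were lower in sterile mutants than in controls. The ORC subunit genes Orc4 and Orc5 fell by 0.53 ± 0.13 (adjusted p = 0.0024) and 0.33 ± 0.13 (adjusted p = 0.0395). Orc6 (−0.38, adjusted p = 0.058) and Cdc6 (−0.14, adjusted p = 0.298) did not pass. The list's median was −0.36.

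Fork proteins fell in 15 of 18 cases with a median of −0.39. Examples are PolD1 (−0.62) and PolE1 (−0.43), catalytic subunits of the replicative polymerases delta and epsilon, Prim1 (primase, −0.61), RnrS (ribonucleotide reductase small subunit, −0.43) and PolA1 (polymerase alpha, −0.26). Of 10 factors that fire origins, 3 fell and 1 rose, a share called below that of all features, with a median of −0.05: Cdc45 (−0.48), a part of the active helicase, RecQ4 (−0.37) and Mcm10 (−0.27) fell, and the kinase gene Cdc7 rose (0.19), a direction that turned under spike-in scaling. Of 16 genes of S-phase control 12 fell (median −0.27), among them Cdk2 (−0.54), Rbf (a retinoblastoma homologue, −0.36), Dref (−0.27), ago (−0.27) and Dp (an E2F partner, −0.20). Of 8 mitotic genes 6 fell (median −0.34), CycB3 (−0.37), polo (−0.34), stg (−0.34), CycB (−0.34) and CycA (−0.31) among them. Of the MCM relatives of meiosis, rec and mei-218, neither passed (0.10 and 0.11). Germline markers were lower as well (5 of 9 fell, median −0.35). In fertile mutants no gene of these lists passed against controls.

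With da-Gal4 knockdown, where 21.1% of all features were called (774 of 7700 higher and 848 lower), the lists together stayed near that share. Calls were 1 of 4 loading factors, 1 of 10 firing factors, 2 of 18 fork proteins, 5 of 16 genes of S-phase control (1 of them lower), 3 of 8 mitotic genes (1 of them lower) and the 1 meiotic MCM relative tested, so they are not a result about these lists. Cdc6 rose by 0.46 ± 0.12 (adjusted p = 0.00981), while Orc4 (0.27), Orc5 (0.32) and Orc6 (0.38) did not pass. Among the others mus101 (0.57), Fen1 (0.48), PolA2 (0.30), Rbf2 (0.44), l(2)dtl (0.36), Rif1 (0.29), Cul4 (0.29), Cdk1 (0.45), fzy (0.44) and rec (0.65) rose, and polo (−0.27) and Myb (−0.19) fell. The gene l(2)dtl encodes the substrate adaptor through which a Cul4 ligase removes Cdt1 in S phase. Germline markers were lower in 5 of 9 cases with da-Gal4. With nos-Gal4 no gene of the replication lists passed (Orc4 0.12, Orc5 0.31, Orc6 0.41, Cdc6 0.14). With tj-Gal4 mus101 rose (0.43) and Myb (−0.26) and Dp (−0.24) fell, while Orc4 (−0.04), Orc5 (0.03), Orc6 (−0.03) and Cdc6 (0.18) did not pass.

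**Figure D5:**
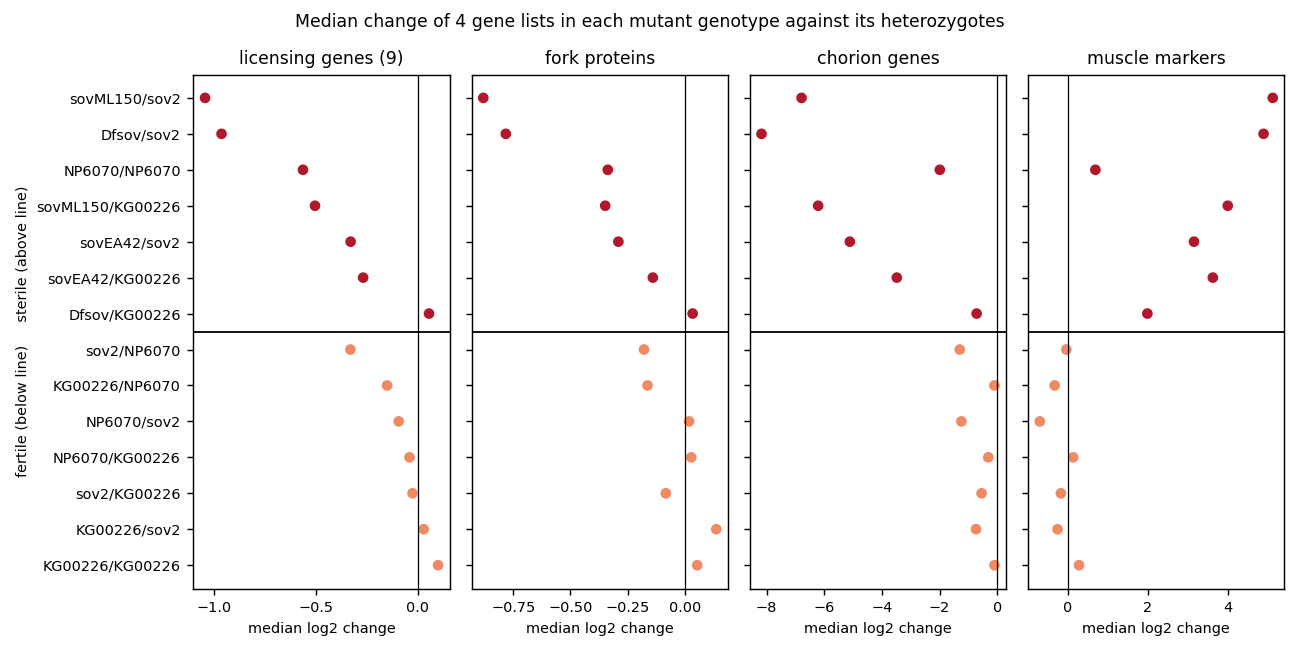
Median log2 change of licensing genes, fork proteins, chorion genes and muscle markers in each mutant genotype (1 point each) against its heterozygotes, with sterile genotypes above the line and fertile ones below. Licensing medians run from −1.04 in sovML150/sov2 to 0.05 in Dfsov/KG00226 among sterile genotypes, and NP6070/NP6070 combines a licensing median of −0.56 with a muscle median of 0.68.

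Over the 30 genotype means of log2(CPM + 1), the members varied together. Pearson's r over the 36 pairs ran from 0.592 (geminin with Mcm7) to 0.972 (Mcm2 with Mcm5), with a median of 0.873. Geminin was least like the other members (median r 0.672) and dpa most (0.933). Apart from the 9 members, the genes with the pattern most like the members' mean standardised level, of 8775 compared, were Ctf4 (r = 0.966), a fork scaffold protein, Cdc45 (0.962), RnrL (the large ribonucleotide reductase subunit, 0.961), FBgn0022772 (0.950) and PolD1 (0.946). The annotation used here does not name FBgn0022772, so whether it is a licensing gene, Orc1 included, was not determined, and it may belong to the set. Without sovML150/sov2 and Dfsov/sov2, the genotypes farthest from the median, these values were 0.925, 0.921, 0.910, 0.884 and 0.893 over 28 genotypes. Genotypes share libraries' depth, scaling and cell makeup, so these values are descriptions. Pairs of other genes were not read, and the pair values were not recomputed without sovML150/sov2 and Dfsov/sov2.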

How the data were processed

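Ovary polyA RNA of 30 genotypes was sequenced as stranded 50 bp single-end libraries, with ERCC spike-in RNAs added from pool 78A or 78B, per the labels' protocols. The deposited values are raw read counts per gene, made by the authors with HTSeq 0.7.2 after alignment with HISAT2 2.0.5 (CASAVA 1.8.2 upstream), per the submitters' processing notes, on genome release 6.21, per the series' design text. Of 17741 entries in each file, 17493 are genes, 147 transposable element families, 96 spike-ins and 5 HTSeq categories of unassigned reads. Those categories (12.554% to 63.092% of a library's reads) were kept out of library sizes and tests. Of the genes, 17366 were matched to a symbol in the BDGP6 annotation.

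Tests used edgeR 4.0.16 (quasi-likelihood, TMM scaling, filterByExpr, Benjamini-Hochberg adjustment over all features tested) in R 4.3.3 with limma 3.58.1; CPM values use TMM-scaled library sizes. Classes were compared on counts summed per genotype, so the genotype is the replicate. Both written orders of an allele pair counted as separate genotypes, and genotypes share alleles. These replicates are therefore not fully independent, and the class p-values of edgeR's test do not allow for it. RNAi groups were compared in 1 fit of 18 libraries, and single genotypes in 1 fit of 69 libraries. Each allele's heterozygotes were weighted equally, and both written orders of the alleles were averaged. The 3 libraries under 100000 gene counts were left out. The labels call the libraries of a genotype biological replicates, each a pool of ovaries. Replicate libraries varied more than the sampling of counts alone would give (lowest chi-square per degree of freedom 3.334 over 84 replicate pairs). Intervals are 95%.

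All 10 listed members were to be named, with up to 5 genes per pathway list with the smallest adjusted p in the sterile and RNAi comparisons, all tested loading factors, and the 5 genes most alike. The members and lists were chosen with earlier results of these data known. Alternatives were DESeq2's size factors, spike-in scaling, no filter, the Wald test of DESeq2 1.42.0, all libraries, 1 spike-in pool or a pool term, a replicate block, all 10 controls as reference, and leaving out each library or genotype; leaving a library out of the genotype fit kept the dispersion trend of all libraries. The scripts were tested on simulated data.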

Additional observations from a re-analysis of the deposited data

Results flagged for a closer look

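Among the 10 control genotypes, Mcm3 was far higher in NP6070/w1118 (193.5 CPM) than in the next control, w1118/w1118 (150.7 CPM), by Dixon's criterion. It was the 1 value so marked in 27 groups of genotype means, and chance marks about 1 group in 20. All 3 of its libraries were high, at 199.7, 182.3 and 198.6 CPM. NP6070/w1118 is 1 of the 2 heterozygotes against which NP6070/NP6070 was set.

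The difference between the sov2 and KG00226 effects was tested with 3 alleles, a comparison chosen after the values had been seen. With Dfsov the log2 difference (Dfsov/sov2 effect minus Dfsov/KG00226 effect) was −0.9559 for dup, −0.4625 for geminin, −1.016 for Mcm2, −1.235 for Mcm3, −1.008 for dpa, −0.8937 for Mcm5, −0.9404 for Mcm6, −1.02 for Mcm7 and −1.255 for Orc2. With sovML150 it was −0.411 for geminin, −0.5382 for Mcm2, −0.9211 for Mcm3, −0.5396 for dpa, −0.5264 for Mcm5, −0.4747 for Mcm7 and −1.251 for Orc2. These had adjusted p-values under 0.05 by edgeR's quasi-likelihood test. With sovEA42 no member passed, but whether the alleles themselves differ from each other in this respect was not tested.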

How the results depend on the processing

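Between sterile mutants and controls 8 members were called, and 8 or 9 with DESeq2's size factors, spike-in scaling, no filter, DESeq2's Wald test or all libraries. With pool 78A alone 3 passed, and 1 between sterile and fertile mutants (6 with all libraries), where 3 passed with pool 78B alone. Fewer libraries enter these fits, and the share of all features called in them is not given here. Leaving out each genotype gave 8 to 9 called members for sterile mutants against controls, 0 to 0 for fertile mutants and 4 to 8 for sterile against fertile mutants. The 51 genotype calls became 49 with size factors, 45 with spike-in scaling, 50 with no filter, 51 with the Wald test, 50 with all libraries, 47 with a pool term and 56 against all 10 controls (2 of these higher, Mcm7 in Dfsov/KG00226 and KG00226/KG00226), and 46 to 56 without single libraries. Leaving out each library gave 0 to 2 called members with da-Gal4, 0 to 0 with nos-Gal4, 0 to 1 with tj-Gal4, 0 to 2 for nos-Gal4 minus tj-Gal4, 0 to 0 for da-Gal4 minus nos-Gal4 and 0 to 3 for da-Gal4 minus tj-Gal4. It gave 0 to 0 for Dfsov/w1118, and for the sov2 minus KG00226 difference 9 to 9 with Dfsov, 0 to 1 with sovEA42 and 2 to 8 with sovML150. No member's change turned its direction and call when a library or genotype was left out.

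Spike-in scaling changed most. Called members became 9 with tj-Gal4, 9 for nos-Gal4 minus tj-Gal4 and 9 for da-Gal4 minus tj-Gal4 (0 each with TMM), and 0 for the sovML150 difference (7 with TMM). It moved the median of all features to −1.33 in sterile mutants, 0.39 in fertile mutants, −1.73 in sterile against fertile mutants, −0.21 with da-Gal4, −0.08 with nos-Gal4 and −1.36 with tj-Gal4; the members' medians lay −0.38, −0.11, −0.25, 0.08, 0.14 and −0.17 from these. The share of calls that were higher went to 93.81% (65.66% with TMM) in fertile mutants, 3.695% (60.1%) in sterile against fertile mutants, 97.39% (14.13%) in nos-Gal4 minus tj-Gal4, 97.32% (31.64%) in da-Gal4 minus tj-Gal4, 74.51% (39%) in da-Gal4 minus nos-Gal4 and 88.55% (56.45%) in sov2/NP6070. Directions turned for Cdc7 in sterile mutants (−1.13), for dup (−1.219), Orc5 (−1.324), Cdc6 (−1.194) and mus101 (−0.9527) with tj-Gal4, for dup (1.237) and geminin (1.231) in nos-Gal4 minus tj-Gal4, and for dup (1.053) in da-Gal4 minus tj-Gal4. They also turned for Mcm7 in sovEA42/KG00226 (−1.267) and geminin in sovML150/KG00226 (−2.597). The cause was not tested. The share of all features called under spike-in scaling is not given here, so its counts of called members have no baseline.

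With the replicate number as a block, 51 genotype calls and 0 RNAi calls were made. Deviations of same-numbered RNAi libraries from their group means had mixed correlations (0.31, 0.04 and 0.14 for da-Gal4, −0.07, 0.22 and 0.01 for nos-Gal4, 0.09, −0.18 and −0.15 for tj-Gal4). These were not set against differently numbered RNAi libraries, so they do not settle whether the numbers mark shared handling.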

Other observations

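The 3 libraries with under 100000 gene counts hold too few reads of the licensing genes to compare. Counts per member were 0 or 1 in replicate 1 of sov2/w1118, 0 to 3 in replicate 3 of Dfsov/sov2 and 2 to 15 in replicate 2 of sovML150/KG00226.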
